A study of Mus musculus with 24 samples.

Results

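Mast cell proteases and receptors were followed in irradiated and unirradiated mouse lung. The set holds 9 genes of the 27401 on the arrays: Cpa3, Cma1, Mcpt4, Mcpt1, Mcpt2, Tpsb2, Tpsg1, Ms4a2 and Fcer1a. 8 of them carry these names in the array files, and Tpsb2 was found by its accession under its older name Mcpt6. They were read by 11 probes, since Cma1 and Mcpt4 have a pair of probes each. The genes were selected on their irradiated and unirradiated levels on these same arrays, so that irradiated against unirradiated values are given below as a description, without a test. 6 of the 9 genes (Cpa3, Cma1, Mcpt4, Tpsb2, Tpsg1 and Fcer1a) were well above background on both arrays of at least 1 group and entered the tests with 20409 genes in all. Mcpt1, Mcpt2 and Ms4a2 did not pass this filter, and Tpsg1 passed it only through the IR group.

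Mast cells are long-lived tissue immune cells that arise from bone marrow progenitors and depend on the receptor tyrosine kinase KIT. They store proteases in granules bound to heparin proteoglycan and release them when antigen cross-links IgE on their high-affinity receptor, FcεRI. In mice, connective tissue mast cells carry carboxypeptidase A3, the chymases encoded by Cma1 and Mcpt4 and the tryptase encoded by Tpsb2, whereas mucosal mast cells carry the chymases encoded by Mcpt1 and Mcpt2.

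Lungs were shock-frozen 24 days after irradiation, and each of 24 single-colour Agilent arrays read the RNA of 1 sample. There were 12 groups of 2 biological replicates, in a study whose title names the joint blocking of TGFβ and PDGF signals in lung fibrosis caused by radiation. The irradiated groups were IR (irradiation without drug), IR+Ly, IR+Imatinib, IR+Su, IR+Ly+Imatinib and IR+Ly+Su. The unirradiated groups were untreated lung and the same drugs without irradiation, named Ly, Su, Imatinib, Ly+Su and Ly+Imatinib. Imatinib inhibits the ABL, KIT and PDGF receptor kinases, while Ly and Su are used here as the labels write them. The labels name no strain, age, sex, radiation dose or drug dose, and whole lung was used, so that fewer cells of a type and less RNA per cell cannot be told apart. Levels are log2 intensities relative to the 75th percentile of the same array, so that 1 unit is a doubling and 0 is that percentile, and they are compared within a probe only.

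The first replicate of IR, called IR 1, stood apart from the other arrays. Its 75th percentile was 2518 intensity units, against 704 to 1768 on the other 23 arrays, and its mean spike-in level was the lowest of the 24. Values that rest on IR 1 are therefore followed by those without it. Between 62.0% and 78.5% of spots were well above background on each array. The lowest signal marked so was 12.2 units on IR+Ly+Imatinib 2, 11.5 on IR+Ly+Su 1 and 13.1 on IR+Ly+Su 2. On the other arrays it was 17.6 to 49.8 units. Dimmer signal thus counts as detected on these irradiated arrays, and counts of arrays above background are not counts of levels. Each of 6 slides carried 4 arrays, all from irradiated or all from unirradiated lungs, so that slide and irradiation cannot be told apart. As a check of the tissue, 8 of 8 lung markers such as Sftpc were measured. Their mean level lay between 4.71 and 5.33 on irradiated arrays and between 5.09 and 5.52 on unirradiated arrays. The lowest mean, 4.71, was that of IR 1.

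The DNA before the starts of these genes is shown because Cpa3, Cma1, Mcpt4, Tpsb2, Tpsg1 and Fcer1a were high on the same irradiated arrays, and that of Mcpt1 is shown as a close relative of Mcpt4. RefSeq promoters (build GRCm38.p6) matched 7 of the 9 genes, all but Mcpt2 and Tpsb2. The 250 bases before the start were searched on both strands for GATA with A or T before it and A or G after it, the form that GATA factors bind. They were also searched for CACATG, an E-box of the kind that MITF binds. GATA2 and MITF are transcription factors that mast cells require. No match overlapped another in the sequences printed, where capitals mark the matches. They are read 5′ to 3′ on the strand of the gene: Cpa3 at chr3:20242182-20242431 (minus strand), Cma1 at chr14:55944676-55944925 (minus), Mcpt4 at chr14:56062311-56062560 (minus), Mcpt1 at chr14:56017714-56017963 (plus) and Fcer1a at chr1:173227230-173227479 (minus).
Cpa3: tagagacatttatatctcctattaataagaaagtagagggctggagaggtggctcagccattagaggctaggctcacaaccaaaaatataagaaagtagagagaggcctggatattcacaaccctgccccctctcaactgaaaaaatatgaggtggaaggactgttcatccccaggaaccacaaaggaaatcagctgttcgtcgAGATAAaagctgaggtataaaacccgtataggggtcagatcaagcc
Cma1: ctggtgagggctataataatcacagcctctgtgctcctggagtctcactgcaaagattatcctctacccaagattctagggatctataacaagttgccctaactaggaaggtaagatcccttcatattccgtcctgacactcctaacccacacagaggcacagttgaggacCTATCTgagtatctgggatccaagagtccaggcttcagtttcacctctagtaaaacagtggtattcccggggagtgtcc
Mcpt4: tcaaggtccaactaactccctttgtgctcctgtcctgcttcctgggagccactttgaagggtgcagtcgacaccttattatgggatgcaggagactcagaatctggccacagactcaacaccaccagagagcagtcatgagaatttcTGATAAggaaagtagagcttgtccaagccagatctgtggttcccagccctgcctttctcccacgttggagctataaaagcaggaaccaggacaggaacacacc
Mcpt1: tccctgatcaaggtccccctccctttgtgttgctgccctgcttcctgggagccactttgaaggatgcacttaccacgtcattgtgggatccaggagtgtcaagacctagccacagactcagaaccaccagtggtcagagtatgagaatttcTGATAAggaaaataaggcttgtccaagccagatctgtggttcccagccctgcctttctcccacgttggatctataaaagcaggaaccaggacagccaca
Fcer1a: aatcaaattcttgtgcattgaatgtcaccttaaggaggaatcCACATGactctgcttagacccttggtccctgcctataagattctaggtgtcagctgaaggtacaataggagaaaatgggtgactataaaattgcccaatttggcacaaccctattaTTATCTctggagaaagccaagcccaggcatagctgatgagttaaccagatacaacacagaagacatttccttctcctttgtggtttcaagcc
A GATA string was present in 7 of the 7 genes, and in 26.5% of the 32851 mouse promoter windows of the same length. In Cpa3 it was AGATAA, 46 to 41 bases before the start, and in Cma1 it was AGATAG on the opposite strand, 79 to 74 bases before it. Mcpt4 and Mcpt1 share TGATAA, 103 to 98 and 99 to 94 bases before their starts, and their windows are identical at 213 of 260 aligned positions (81.9%). Ms4a2, whose window is not printed, had 3 GATA matches, and Tpsg1 had 1 in the window of 1 of its 2 starts. CACATG occurred in Fcer1a alone of the 7 genes, and in 12.3% of the windows of all promoters. Such matches are letters and not measured binding.

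The genes measured above background had higher mean levels in irradiated lungs. The difference was largest without a drug for Cma1, Mcpt4 and Fcer1a, with and without IR 1. Cpa3, Tpsb2 and Tpsg1 were not above background in untreated lung, so that their differences are bounds and give no order. For Tpsb2 the difference was at least 5.06-fold without a drug and at least 3.76-fold in the Imatinib arm. Both arrays of IR were above both arrays of untreated lung for 6 of the 6 tested genes, as they were for 22.5% of the 20409 genes. Without a drug the median irradiation difference of the 6 genes was 4.68 log2 units, against -0.00 for all genes tested, and as the mean of the 6 drug arms it was 1.96 against 0.01. Without IR 1 these medians of the 6 genes were 3.0 and 1.58. With Cpa3, Tpsb2 and Tpsg1 at the bounds given below, the median without a drug was 3.95, and 2.46 without IR 1. These differences are the ones on which the set was chosen.

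**Figure D1:**
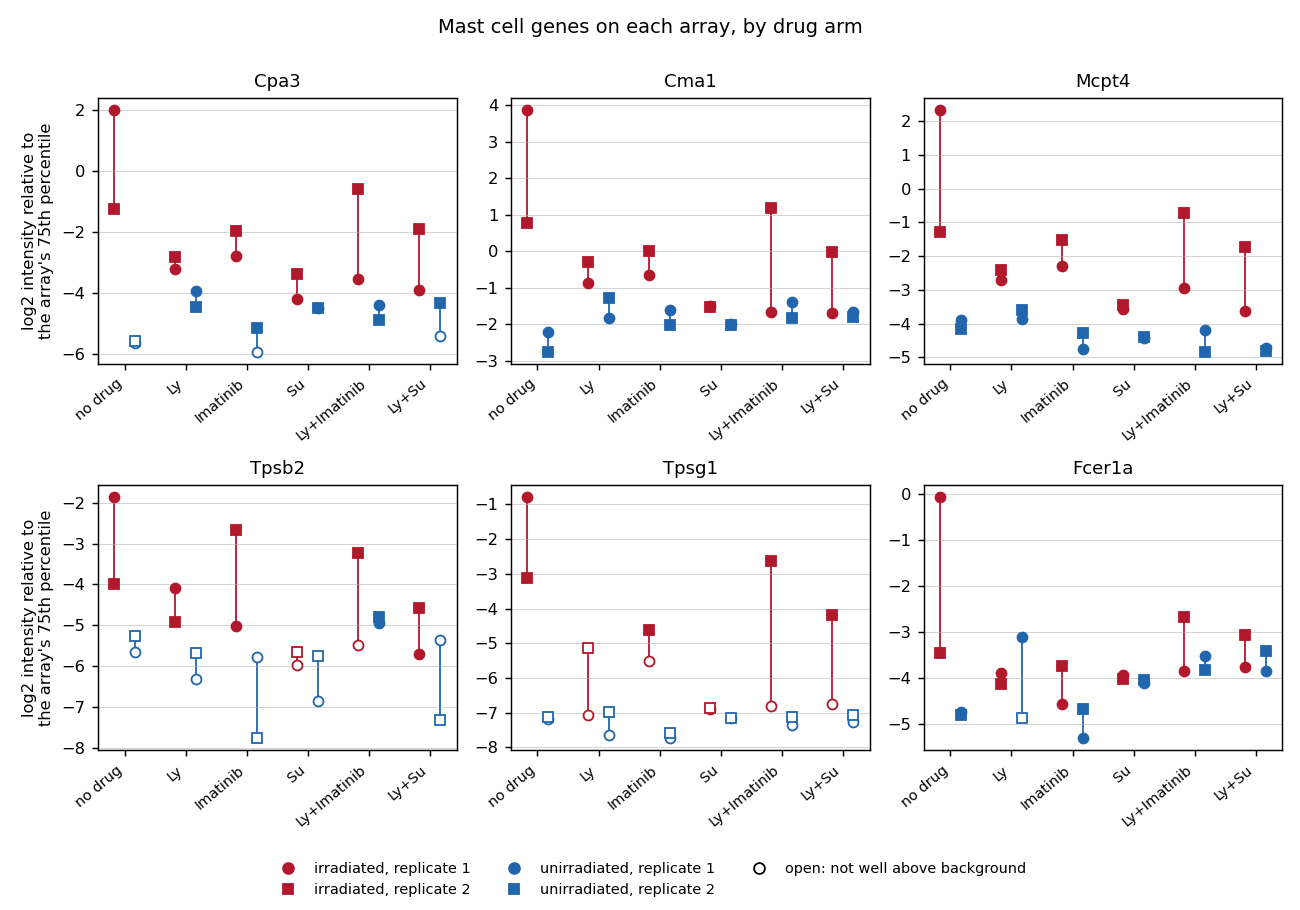
Log2 level (vertical axis, relative to the 75th percentile of the array) of 6 mast cell genes on each of the 24 arrays, by drug arm (horizontal axis). Red points are irradiated and blue points unirradiated arrays, circles are replicate 1 and squares replicate 2, a line joins the 2 arrays of a group, and open points were not well above background. IR 1 is the highest array for each of the 6 genes, and the IR+Ly+Imatinib replicates lie 2.94 log2 units apart for Cpa3.

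Cpa3 encodes carboxypeptidase A3, a granule exopeptidase of mast cells. Its level was 1.99 and -1.24 on the IR arrays, against -5.64 and -5.58 on the untreated arrays, which were not well above background. The groups did not overlap, and IR exceeded untreated by 5.99 log2 units (SE 0.98), or at least 50.5-fold when untreated is set to the lowest signal marked as above background or to its own value, whichever was higher on each array. Without IR 1 the difference was 4.37, at least 16.4-fold. With the drugs the levels were -3.20 and -2.82 in IR+Ly, against -3.94 and -4.45 in Ly. They were -2.80 and -1.97 in IR+Imatinib, against -5.93 and -5.15 in Imatinib, and -4.20 and -3.38 in IR+Su, against -4.48 and -4.50 in Su. IR+Ly+Imatinib had -3.53 and -0.59, against -4.39 and -4.90 in Ly+Imatinib, and IR+Ly+Su had -3.89 and -1.92, against -5.41 and -4.32 in Ly+Su. The irradiated arrays were the higher ones in each arm, with a smallest difference of 0.70 in the Su arm. No largest difference is given. Without drug, and on 1 array each of Imatinib and Ly+Su, the unirradiated signal was not above background.

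Cma1 encodes mast cell protease 5, the mouse α-chymase family member, which in the mouse has elastase activity. It was above background on 24 of 24 arrays, with 3.87 and 0.78 in IR, against -2.20 and -2.75 in untreated lung. Both IR arrays were far above the untreated ones, and the difference was 4.80 (SE 0.89), or 27.9-fold, and 3.26, or 9.57-fold, without IR 1. Its levels were -0.87 and -0.31 in IR+Ly, against -1.82 and -1.29 in Ly, and -0.64 and 0.01 in IR+Imatinib, against -1.61 and -2.01 in Imatinib. In IR+Su they were -1.50 and -1.54, against -2.0 and -2.02 in Su, a small difference of 0.49 with no overlap. IR+Ly+Imatinib had -1.67 and 1.17, against -1.38 and -1.84 in Ly+Imatinib, and IR+Ly+Su had -1.69 and -0.03, against -1.67 and -1.80 in Ly+Su. In both combination arms the first irradiated array lay within the range of the unirradiated ones and the second far above it. The second probe of Cma1 gave 1.47 and -1.54 in IR, against -5.04 and -4.53 in untreated lung.

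Mcpt4 encodes mouse mast cell protease 4, the chymase thought closest in function to the single human chymase. It was above background on 24 of 24 arrays, with 2.33 and -1.28 in IR, against -3.91 and -4.16 in untreated lung. The difference was 4.55 (SE 0.91), or 23.5-fold, and 2.75, or 6.73-fold, without IR 1. Its levels were -2.72 and -2.41 in IR+Ly, against -3.86 and -3.60 in Ly, and -2.28 and -1.52 in IR+Imatinib, against -4.75 and -4.26 in Imatinib. They were -3.57 and -3.44 in IR+Su, against -4.44 and -4.40 in Su. IR+Ly+Imatinib had -2.95 and -0.72, against -4.18 and -4.83 in Ly+Imatinib, and IR+Ly+Su had -3.63 and -1.72, against -4.72 and -4.81 in Ly+Su. Both irradiated arrays exceeded both unirradiated ones in each of the 6 arms. The second probe of Mcpt4 gave 0.85 and -2.38 in IR, against -4.73 and -4.70 in untreated lung.

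The mucosal chymases stayed near background. Mcpt1, a chymase released from intestinal mast cells in worm infection, was above background on 1 of 24 arrays, IR+Imatinib 2, at -5.25. Mcpt2, its close relative, was above background on IR 1 alone, at -5.37. Because neither passed the filter, no difference is given for them. Mcpt1, Mcpt2, Mcpt4 and Cma1 lie in the same gene cluster, and probes for such similar genes may share signal, which was not tested.

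The tryptase genes were low or undetected without irradiation. Tpsb2 encodes mast cell protease 6, the tetrameric tryptase of connective tissue mast cells. It had -1.85 and -3.98 in IR, against -5.65 and -5.26 in untreated lung, where it was not well above background. The difference was 2.54 (SE 0.98), or at least 5.06-fold, and 1.48, or at least 2.42-fold, without IR 1. Tpsb2 had -4.09 and -4.93 in IR+Ly, against -6.32 and -5.68 in Ly, and -5.01 and -2.66 in IR+Imatinib, against -5.77 and -7.77 in Imatinib. It was below background on both arrays of IR+Su and of Su, and in Ly+Imatinib, at -4.94 and -4.81, it was above background without irradiation. IR+Ly+Imatinib had -5.49 and -3.23, on either side of those Ly+Imatinib arrays. IR+Ly+Su had -5.72 and -4.57, against -5.35 and -7.33 in Ly+Su, which overlapped.

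Tpsg1 encodes the membrane-anchored γ-tryptase. It was above background on 0 of the 12 unirradiated arrays, whose levels ran from -7.74 to -6.97, and on 5 of the 12 irradiated arrays. In IR it had -0.78 and -3.11, against -7.19 and -7.12 in untreated lung, and the difference of 5.21 (SE 1.11) is at least 10.1-fold, or at least 4.51-fold without IR 1. The other arrays above background were IR+Imatinib 2 at -4.61, IR+Ly+Imatinib 2 at -2.63 and IR+Ly+Su 2 at -4.17, each the second replicate of its group. Neither array of IR+Ly (-7.06 and -5.14) or of IR+Su (-6.90 and -6.87) was well above background.

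Of the receptor subunits, Fcer1a encodes the IgE-binding α chain of FcεRI, which basophils also carry. It had -0.06 and -3.45 in IR, against -4.74 and -4.79 in untreated lung, a difference of 3.01 (SE 0.80), or 8.04-fold. Without IR 1 the difference was 1.31, or 2.48-fold. The irradiation difference of Fcer1a was -0.01 in the Ly arm, 0.84 in the Imatinib arm, 0.10 in the Su arm, 0.40 in the Ly+Imatinib arm and 0.21 in the Ly+Su arm, with an SE of 0.80 in each. Ms4a2, the signal-amplifying β chain of the same receptor, was above background on IR 1 alone, at -4.61. On that array both subunits were detected together.

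**Figure D2:**
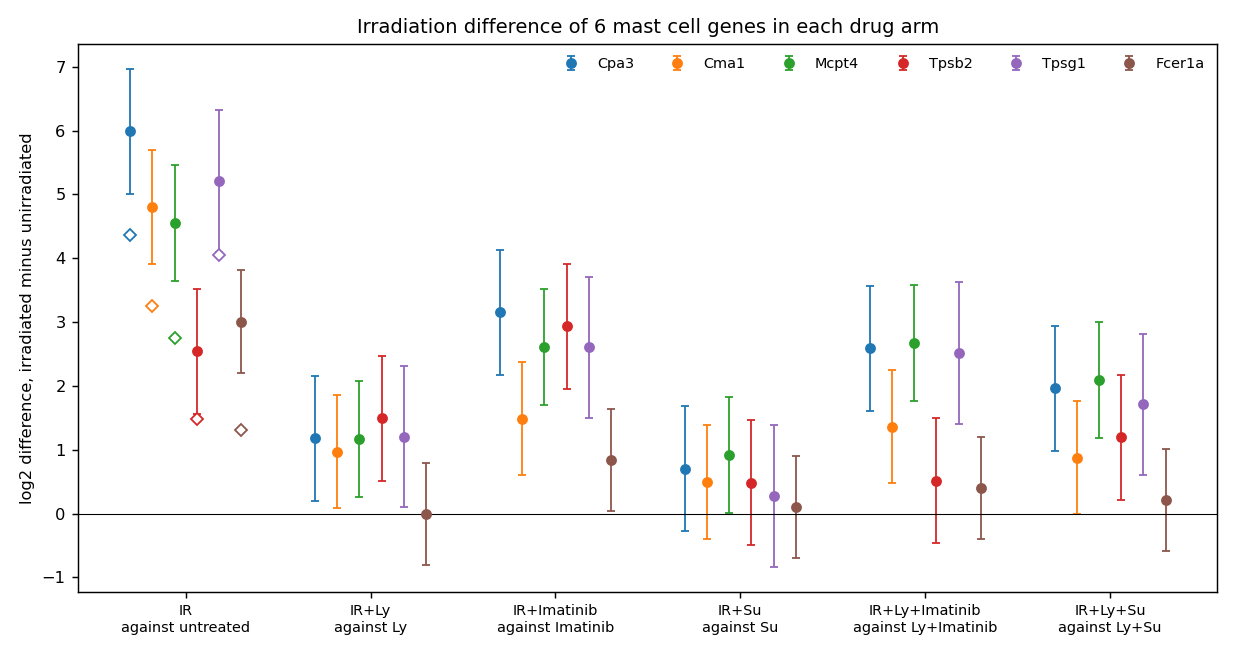
Log2 difference (vertical axis), irradiated minus unirradiated, of 6 mast cell genes in each of the 6 drug arms (horizontal axis), with error bars of 1 SE from the limma fit and n = 2 arrays a group. Open diamonds give the difference without IR 1, which is 4.37 for Cpa3 and 1.31 for Fcer1a, and the differences in the Su arm lie between 0.10 and 0.91.

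The irradiation difference of a gene varied with the drug arm as a description. Counting genes whose irradiated arrays both lay above their unirradiated arrays, there were 4 of the 6 in the Ly arm, where 16.3% of all genes did so. There were 6 in the Imatinib arm (30.6% of all genes), 5 in the Su arm (33% of all genes), 3 in the Ly+Imatinib arm (26.4%) and 3 in the Ly+Su arm (30.6%). 5 of the 6 genes, all but Fcer1a, had a positive mean difference in 6 of 6 arms, as had 10% of all genes. The median fitted difference of the 6 genes was 4.68 without drug (3.0 without IR 1), 1.17 in the Ly arm, 2.61 in the Imatinib arm, 0.49 in the Su arm, 1.94 in the Ly+Imatinib arm and 1.45 in the Ly+Su arm. In each of these arms Tpsg1 and, in all but the Ly+Imatinib arm, Tpsb2 were set against signal not above background. So was Cpa3 without drug. In the Su arm neither Tpsb2 nor Tpsg1 was above background on any array, irradiated or not. The 5 genes counted there include Tpsg1, at background on both sides. Tpsg1 was also not above background in IR+Ly. Over all genes tested the medians lay between -0.05 and 0.04.

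Ordered by mean level, IR came first for each of the 6 tested genes, and for 4 of them without IR 1, all but Tpsb2 and Fcer1a. IR+Ly+Imatinib was next for Cma1, Mcpt4, Cpa3, Tpsg1 and Fcer1a, and IR+Imatinib for Tpsb2. Below IR, no step between neighbouring groups in this order exceeded 1 SE, the largest being 0.83 for Mcpt4 with an SE of 0.91. The arrays of IR itself overlapped those of the next group for each of the 6 genes. Irradiated groups took the first 6 places for Cpa3, Cma1, Mcpt4 and Tpsg1. For Tpsg1, no array of IR+Ly or IR+Su was above background, and for Cma1 IR+Su led Ly by 0.04 (SE 0.89). This order reuses the levels that chose the set, and its share over all genes was not counted.

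Against IR, the irradiated drug groups had lower means of the 6 genes, and because IR was used in choosing the set no test is given. IR+Su was lowest for 5 of the 6 genes and IR+Imatinib for Fcer1a. In IR+Su the difference from IR was -4.16 for Cpa3 (SE 0.98), -3.84 for Cma1 (SE 0.89) and -4.03 for Mcpt4 (SE 0.91). Without IR 1 these differences were -2.55, -2.30 and -2.22. For IR+Imatinib the Cpa3 difference from IR was -2.76, and -1.14 without IR 1. For IR+Ly it was -3.39, and -1.77 without IR 1, and for IR+Ly+Su it was -3.28, and -1.66 without IR 1. For IR+Ly+Imatinib it was -2.43, and -0.81 without IR 1, and its second array (-0.59) was above the second IR array (-1.24). Once IR 1 was left out, 3 differences from IR were positive: 0.19 in IR+Ly+Imatinib and 0.04 in IR+Ly+Su for Fcer1a, and 0.14 in IR+Imatinib for Tpsb2.

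Without irradiation, Cma1 had a higher mean than untreated in each of the 5 drug groups, and the sign varied with the drug for Mcpt4. Cpa3 was not above background in untreated lung, and its level was at least 2.13-fold higher in Ly, at least 1.73-fold in Su and at least 1.56-fold in Ly+Imatinib, where both arrays were above background. These bounds rest on the lowest signal marked as above background on each untreated array. They make no allowance for the spread between arrays, with an SE of 0.98 for each log2 difference. In Imatinib and in Ly+Su 1 of 2 arrays was above background, and no direction is given for Imatinib. The Cma1 means were above untreated by 0.46 to 0.92 (SE 0.89). Mcpt4 differed from untreated by -0.73 to 0.31 (SE 0.91). The mean of Fcer1a was -3.99 in Ly, -4.07 in Su, -3.67 in Ly+Imatinib and -3.62 in Ly+Su. It was -4.76 in untreated lung and -4.99 in Imatinib (SE of a difference 0.80), and Ly 2 was not above background. Ly 1 (-3.11) and Ly+Su 2 (-3.40) lay above IR 2 (-3.45) for Fcer1a. Tpsg1 was not well above background in any of these groups. The untreated arrays too were used in choosing the set, so these differences carry no test.

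Differences among drug groups that do not involve IR or untreated lungs were tested with limma over 20409 genes with Benjamini-Hochberg adjustment. IR+Imatinib and IR+Su differed by 1.40 for Cpa3 (SE 0.98, adjusted p = 0.784), and by 1.61 for Mcpt4 (SE 0.91, adjusted p = 0.679) in limma. Tpsb2 was not above background in IR+Su, and its mean in IR+Imatinib was at least 3.04-fold higher (adjusted p = 0.611 in limma). That mean comes from arrays at -5.01 and -2.66. The bound allows for the detection limit alone, and the 95% confidence interval of the fitted difference included 0 (SE 0.98). None of the 6 genes passed the threshold of 0.05 in limma, where 0.0784% of all genes did. Tpsg1, counted among the 6, passed the filter only through IR. Of the arrays compared here it was above background on IR+Imatinib 2 alone, so that there was little to test for it. The 95% confidence interval of the Mcpt4 difference ran from -0.34 to 3.56, which leaves room for a difference of several-fold. For Fcer1a the difference was -0.18, with an interval from -1.90 to 1.54.

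The combinations were compared with each other and with their parts in the same way. IR+Ly+Imatinib and IR+Ly+Su shared a slide, as did IR+Imatinib and IR+Su, but the 4 comparisons of a combination with its parts were between slides, so that slide and drug cannot be told apart there. IR+Ly+Imatinib and IR+Ly+Su differed by 0.85 for Cpa3, with an interval from -1.25 to 2.95, and by 0.84 for Mcpt4, with an interval from -1.10 to 2.79. 0 of the 6 genes passed, and 0% of all genes did. IR+Ly+Imatinib against IR+Imatinib gave 0.33 for Cpa3 (interval -1.77 to 2.43), with 0 of 6 genes past the threshold and 1.39% of all genes. IR+Ly+Imatinib against IR+Ly gave 0.95 for Cpa3 (interval -1.15 to 3.05), with 0 of 6 against 3.32%. IR+Ly+Su against IR+Su gave 0.88 (interval -1.22 to 2.98), with 0 of 6 against 3.26%, and IR+Ly+Su against IR+Ly gave 0.11 (interval -1.99 to 2.21), with 0 of 6 against 3.17%. Over these 6 pairs and 6 genes the fitted differences ran from -0.63 to 1.99, and adjusted p in limma ran from 0.591 to 1.00. None of the 36 reached an unadjusted p under 0.05 in limma. The lowest adjusted p was that of Tpsg1, which was above background on no more than 1 array of each irradiated drug group. Each count of 0 of 6 thus holds a gene with little to test.

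**Figure D3:**
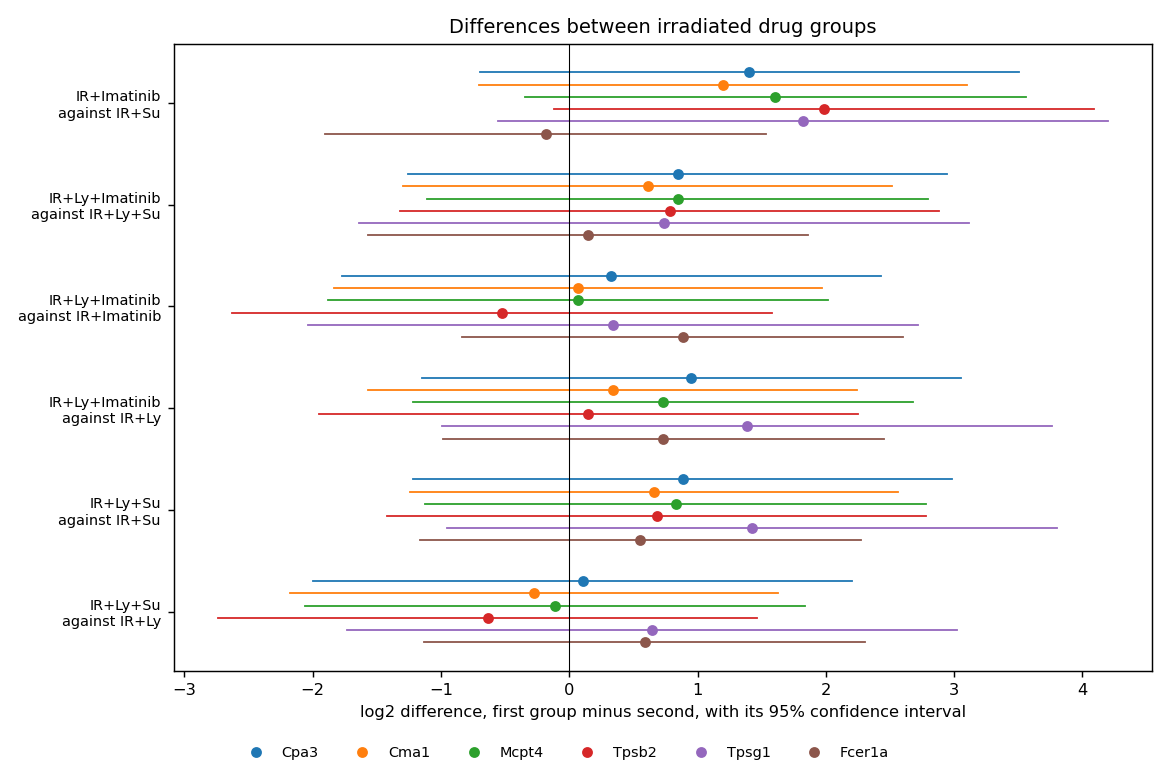
Log2 difference between irradiated drug groups (horizontal axis, first group minus second) with its 95% confidence interval from the limma fit, for 6 pairs of groups (vertical axis) and 6 mast cell genes (colours), n = 2 arrays a group. Each of the 36 intervals includes 0, and their ends reach from -2.74 to 4.20.

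F tests over several groups gave the same counts. Among the 5 irradiated drug groups 0 of the 6 genes passed in limma, where 4.67% of all genes did, with a smallest adjusted p of 0.716 for Tpsb2. Tpsg1 was above background on no more than 1 array of each of these groups, so that there was little to test for it. Among the 5 unirradiated drug groups Tpsg1 was above background on no array and Tpsb2 on those of Ly+Imatinib alone, so that there was little to test for them. 0 of the other 4 genes passed in limma, where 6.09% of all genes did, with a smallest adjusted p of 0.779 for Fcer1a. Neither F test gave an unadjusted p under 0.05 in limma for any of these genes. The irradiation difference varied across the 5 drug arms for 0.416% of all genes and for 0 of the 6, from which nothing is read, since such differences chose the set.

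The replicates of irradiated groups differed more for these genes than for most genes. The SD between replicates within irradiated groups was 1.43 for Cpa3, 1.33 for Cma1, 1.36 for Mcpt4, 1.20 for Tpsb2, 1.68 for Tpsg1 and 1.08 for Fcer1a, against a median of 0.24 for all genes tested. For Cpa3, 99.2% of genes had a smaller SD there. In the 5 irradiated drug groups alone, without IR, the SD was 1.19 for Cpa3 and 0.51 for Fcer1a, against a median of 0.16. Within unirradiated groups it was 0.44 for Cpa3, 0.28 for Cma1, 0.26 for Mcpt4 and 0.22 for Tpsg1, against a median of 0.19. The Tpsg1 value is the spread of background signal, since it was above background on 0 of the unirradiated arrays. For Tpsb2, above background on 2 unirradiated arrays, the SD there was 0.90. For Fcer1a the SD there was 0.56, which is above its 0.51 in the irradiated drug groups. The replicates of IR+Ly+Imatinib differed 7.70-fold for Cpa3, 7.16-fold for Cma1 and 4.70-fold for Mcpt4, and those of IR differed 9.44-fold, 8.48-fold and 12.2-fold in the same order of genes. In IR+Su the replicates were 1.77-fold apart for Cpa3, 1.03-fold for Cma1 and 1.10-fold for Mcpt4.

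As a description, the genes tended to be high on the same irradiated arrays. In the 6 irradiated groups, the replicate with more Cpa3 also had more Mcpt4 in 6 of 6 and more Tpsg1 in 6 of 6. It had more Cma1 in 5 of 6, more Tpsb2 in 5 of 6 and more Fcer1a in 4 of 6. In IR+Ly and IR+Su neither array was above background for Tpsg1, so its order there is that of background signal. Such counts were not made over all genes, so whether they are unusual cannot be read. In the 6 unirradiated groups these counts were 2 for Mcpt4, 4 for Tpsg1, 2 for Cma1, 1 for Tpsb2 and 4 for Fcer1a. Over the 12 irradiated arrays the Pearson correlation with Cpa3 was 0.99 for Cma1, 0.99 for Mcpt4, 0.96 for Tpsg1, 0.88 for Tpsb2 and 0.89 for Fcer1a, with Spearman's rho of 0.94, 0.98, 0.90, 0.90 and 0.66 in that order. These points share their RNA, array and scaling, and the groups differ among them. Tpsg1 was above background on 5 of the 12 irradiated arrays and on 0 of the unirradiated ones, so its other points are background signal. Without IR 1 and IR+Ly+Imatinib 2, the arrays with the highest and next highest Cpa3, Pearson's r was 0.95, 0.97, 0.94, 0.77 and 0.46. Over the 12 unirradiated arrays r was 0.37 for Cma1, 0.25 for Mcpt4, 0.20 for Tpsg1, -0.24 for Tpsb2 and 0.74 for Fcer1a.

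**Figure D4:**
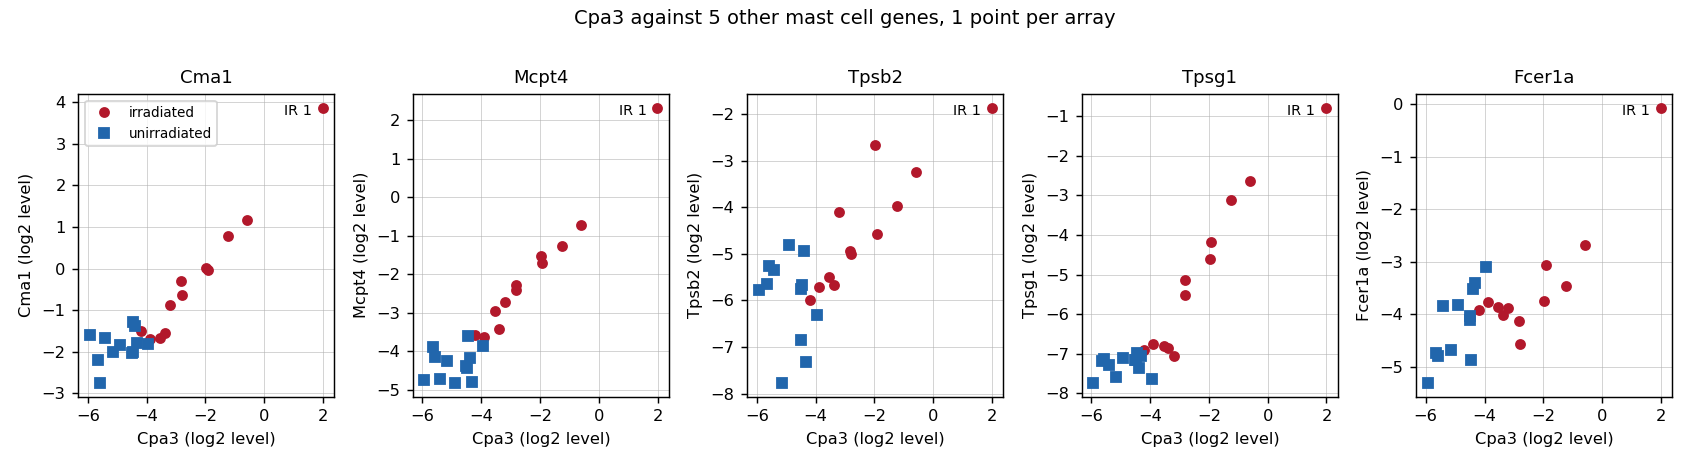
Log2 level of 5 mast cell genes (vertical axes) against that of Cpa3 (horizontal axis) on the 24 arrays, red circles irradiated and blue squares unirradiated. The irradiated arrays of Cma1, Mcpt4 and Tpsg1 run along a line that ends at IR 1, while Fcer1a lies between -4.56 and -2.68 on the other 11 irradiated arrays.

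Other genes that mast cells use did not move as a block. Of 28 listed genes, 27 were on the array and 24 were tested. In IR against untreated, 8 of the 24 rose and 2 fell in limma, where 7.1% of all genes rose and 7.29% fell, and the median difference of the list was 0.41 against -0.00. Without IR 1, 2 rose and 0 fell, where 0.544% and 0.269% of all genes did. Averaged over the 6 arms, 5 rose and 3 fell, where 16.4% of all genes rose and 16.4% fell, and these counts were again 5 and 3 without IR 1. The genes counted as risen in IR and over the 6 arms include Tph1, above background on 5 irradiated and 0 unirradiated arrays. It entered the tests through irradiated groups alone, so these counts hold a call that the filter favoured. The list was assembled with earlier results of these arrays known.

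Among them, Hpgds, the synthase that makes prostaglandin D2 in mast cells and some other leukocytes, had -2.80 and -3.49 in IR, against -6.67 and -7.10 in untreated lung, where it was below background. It was at least 4.41-fold higher in IR (adjusted p = 0.000690 in limma), and at least 3.46-fold without IR 1 (adjusted p = 0.00904 in limma). Over the 6 arms it rose (adjusted p = 8.63e-06 in limma), above background on 12 irradiated and 6 unirradiated arrays, with irradiated arrays from -4.70 to -2.80 and unirradiated arrays from -7.10 to -4.61. Tph1, the enzyme of peripheral serotonin synthesis, was detected on 5 of the 12 irradiated arrays and on 0 of the 12 unirradiated ones. It entered the tests through irradiated groups alone, so its call is not read as a result, and its levels ran from -7.58 to -4.36 on irradiated and from -7.98 to -6.63 on unirradiated arrays. Cd63, a granule membrane protein of many cell types, named here after its values were seen, was the other gene that rose without IR 1, by 0.83 (adjusted p = 0.0275 in limma).

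The receptor and the transcription factors of the lineage went the other way or did not pass. Kit, the receptor for stem cell factor, had -0.15 and 0.99 in IR, against 1.89 and 1.68 in untreated lung, and it fell by 1.36 (SE 0.31, adjusted p = 0.0153 in limma). Without IR 1 the Kit difference was -0.79 and did not pass (adjusted p = 0.180 in limma). Averaged over the 6 arms Kit fell by 0.70 (SE 0.12, adjusted p = 0.000939 in limma), and by 0.60 without IR 1 (adjusted p = 0.000478 in limma). Gata2 had 0.87 and 2.10 in IR, against 2.29 and 2.80 in untreated lung, and averaged over the arms it fell by 0.39 (SE 0.12, adjusted p = 0.0226 in limma), and by 0.28 without IR 1 (adjusted p = 0.0107 in limma). Mitf did not pass, with an averaged difference of -0.13 (SE 0.13, adjusted p = 0.488 in limma). Il1rl1, the receptor for interleukin-33, was 1.32 on IR 1 and -1.10 on IR 2, against -1.59 and -2.13 in untreated lung, and passed only with IR 1 (adjusted p = 0.0343 with it and 0.405 without it in limma). In lung, endothelial cells also express Kit and Gata2, and the part of other cell types in these values was not tested.

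**Figure D5:**
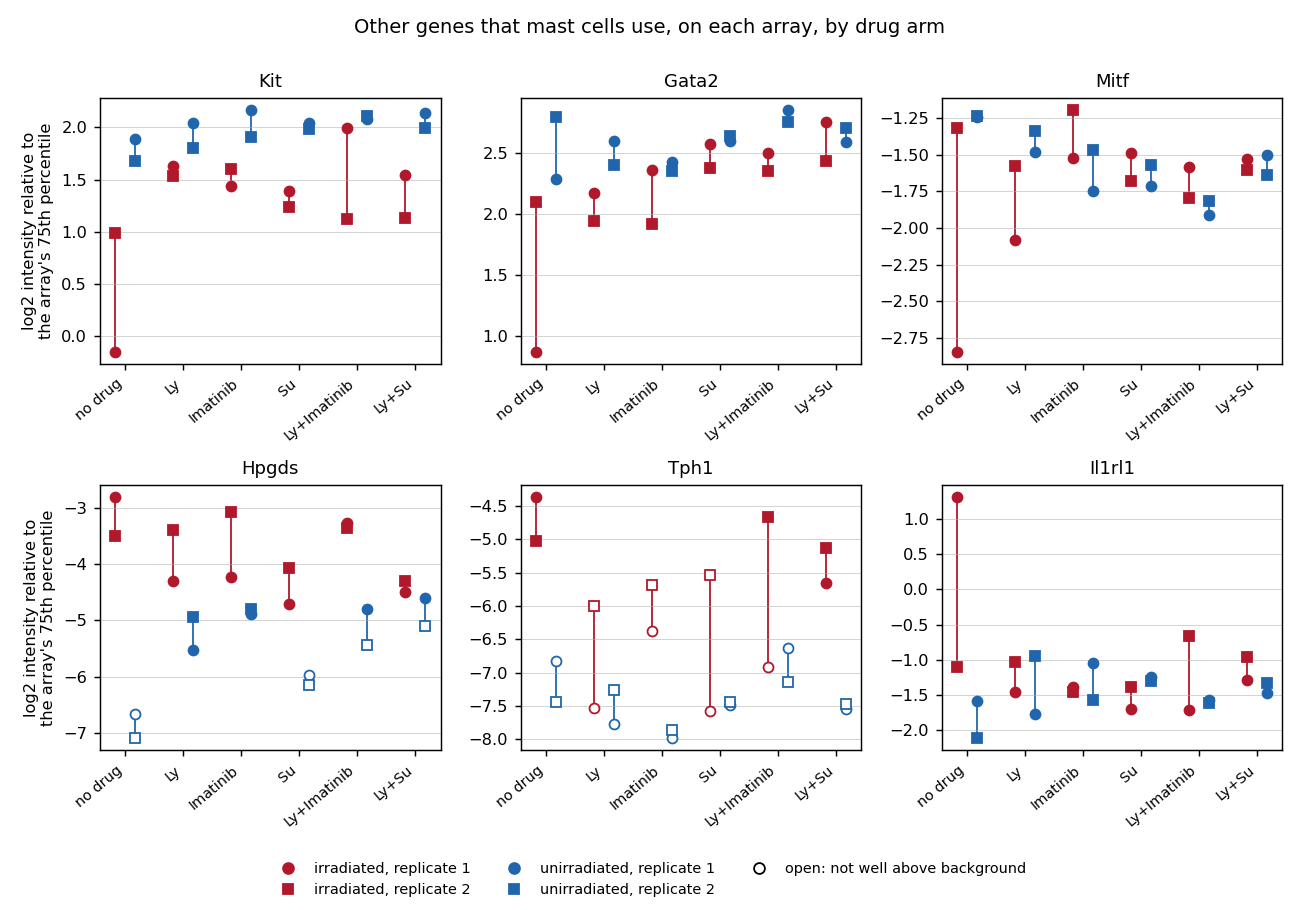
Log2 level (vertical axis) of Kit, Gata2, Mitf, Hpgds, Tph1 and Il1rl1 on the 24 arrays, by drug arm (horizontal axis), with the symbols and colours of the plot of the mast cell genes. Kit lies at -0.15 on IR 1 and between 0.99 and 2.00 on the other irradiated arrays, against 1.68 to 2.17 on unirradiated arrays, and Hpgds is higher with irradiation in each arm.

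Factors that feed or recruit mast cells were read next. Of 21 listed genes 17 were tested, and in IR against untreated 2 rose (Ccl2 and Itgae) and 2 fell (Tslp and Itga4) in limma, with 0 and 0 without IR 1. Averaged over the arms 5 of the 17 rose and 1 fell, where 16.4% of all genes rose and 16.4% fell. Without IR 1, 6 rose (35.3%) and 1 fell (5.88%), where 18.4% and 20% of all genes did. The genes risen over the arms, with and without IR 1, include Madcam1, whose signal stayed at background on every unirradiated array. Irradiated groups alone took Madcam1 past the filter, so these counts hold a call that the filter favoured. Kitl, which encodes stem cell factor, had 1.23 and 1.17 in IR, against 1.33 and 1.58 in untreated lung, with an averaged difference of 0.05 (adjusted p = 0.671 in limma). Il33, an alarmin that acts on mast cells, rose by 0.39 averaged over the arms (SE 0.12, adjusted p = 0.0189 in limma). Ccl2, a chemokine for monocytes, rose by 0.89 (SE 0.19, adjusted p = 0.00308 in limma), and Tslp, an epithelial cytokine, fell by 0.49 (SE 0.06, adjusted p = 0.000107 in limma). Il3 and Il9, growth factors of mouse mast cells, were not tested because they did not pass the filter.

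Markers of cells that could travel with the mast cell genes were read on the same arrays, in IR against untreated lung, where 7.1% of all genes rose and 7.29% fell. Of basophil markers 1 of 9 rose and 0 fell, and Mcpt8, the basophil protease, had -3.74 on IR 1 and -7.51 on IR 2, against -6.01 and -4.94 in untreated lung. Of eosinophil markers 0 of 8 passed, of the other genes of the chymase cluster 1 of 5 rose, of cartilage markers 1 of 6, of lymph node markers 1 of 4 and of fibroblast and adventitia markers 2 of 7. Of mesothelial markers 3 of 6 fell. The risen gene of the chymase cluster was Gzmc, for which no unirradiated array gave a detected signal. Irradiated arrays alone took Gzmc past the filter, so its call is not read as a result. Without IR 1, 0 markers of these lists passed in limma, where 0.544% of all genes rose and 0.269% fell. 0 of 6 airway smooth muscle, 0 of 5 adipose, 0 of 6 skeletal muscle and 0 of 8 lung markers passed. Macrophage markers rose in 6 of 6, and in 3 of 6 without IR 1, and their mean level was 1.85 on IR 1, from -0.39 to 1.85 over the irradiated arrays and from -0.92 to 0.16 over the unirradiated arrays. The part of macrophages in the mast cell values was not tested.

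The genes whose levels over the 24 arrays were most like those of the 3 members with the highest mean level were ranked by Pearson's r. For Cma1, Mcpt4 and Cpa3 the 3 closest of all genes tested were other members of the set on all arrays. Without IR 1, Dlk1 (0.924) and Gdf15 (0.914) were closer to Mcpt4 than Tpsg1 (0.911). Kng1 (0.906) was then closer to it than Cma1 (0.902), and Dlk1 (0.909) was closer to Cpa3 than Tpsg1 (0.904). For Cma1 the members stayed closest among named genes, with Mcpt4 at 0.902 against 0.860 for Aspa. Beyond the set, Inhba, which encodes the βA subunit of activin A, a ligand of the TGFβ family, came first for each, with r of 0.91 for Cma1, 0.94 for Mcpt4 and 0.90 for Cpa3, and 0.80, 0.88 and 0.82 without IR 1. Without IR 1 it lost the first place, to Aspa for Cma1 (0.86) and to Dlk1 for Mcpt4 (0.92) and Cpa3 (0.91). On all arrays it was followed by Sult4a1, Havcr2, Cd59a and Serpinb12 for Cma1 (r of 0.88 to 0.89), by Cd59a, Lrp11, Ankrd34b and Kng1 for Mcpt4 (0.90 to 0.92), and by Prnd, Gpnmb, Ankrd34b and Ncam1 for Cpa3 (0.89 to 0.90). Inhba had 1.69 and -0.27 in IR, against -1.80 and -1.56 in untreated lung. Since irradiated and unirradiated arrays are pooled here, any gene that differs between them gains correlation.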

How the data were processed

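The deposited values of the 24 array files are intensity, a processed signal from which background had been subtracted by Feature Extraction 9.1.3.1 (Agilent), according to their headers. Spots of a probe were averaged, 619 of 41174 probes with outlier marks were left out, and the probe with the highest mean over the arrays stood for a gene. The log2 of the signal minus the log2 of the 75th percentile of the array was analysed. A gene was tested when Feature Extraction marked it as well above background on both arrays of at least 1 group. limma 3.58.1 in R 4.3.3 fitted 1 mean for each of the 12 groups over all 24 arrays, with 12 residual degrees of freedom and 2.08 from the shared variance. P-values are two-sided, adjusted by Benjamini-Hochberg over 20409 genes, with 0.05 as the threshold. The test was tried on simulated data. Arrays have no read depth, and 2 per group limit the precision. The labels call the samples biological replicates. The members and the gene lists were chosen with earlier results of these data known. All 9 members are named, the 5 genes most correlated with each of the 3 members of highest level, and list genes by known function. Replicate numbers were not taken as pairs: over 66 pairs of groups the correlation of deviations had a median of 0.036 and a range from -0.202 to 0.250. One IR+Su sample is replicate 2 by its title but 1 by its source name, and the title was followed. The series table, the same intensity as deposited times a constant (ratios of 0.996 to 1.00), served as an alternative. Promoters were aligned with Biopython 1.88.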

Additional observations from a re-analysis of the deposited data

How the results depend on the processing

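In each of the 9 limma tests over drug groups 0 of the members passed under every setting run: quantile normalization, normexp, no filter, genes above background on all 24 arrays, every probe, the series table, the replicate block (0 in each) and leaving out 1 array at a time (0 to 0). The replicate block changed no call, and it is no evidence of pairing, since replicate numbers did not mark shared samples. Slide as a random block could not be fitted, because each slide held whole groups. Quantile normalization left 3 genes with separate arrays in the Su arm, against 5. Requiring signal above background on all 24 arrays keeps Cma1 and Mcpt4 by construction, and gave 2 genes without drug and in the Ly, Imatinib and Su arms, 1 in both combination arms and 2 in 6 of 6 arms. Normexp on all spots gave 1 gene without drug, 0 in both combination arms and 1 in 6 of 6 arms. There, a few spots far below their local background raised the corrected signal of dim spots (5th percentile up to 1239 units). Normexp without these spots, added after seeing the data, gave 6 genes without drug, 6 in the Imatinib arm, 5 in the Su arm, 3 in the Ly arm, 2 in both combination arms and 5 in 6 of 6 arms. Leaving out 1 array gave 6 to 6 genes without drug, 4 to 5 in the Ly arm, 6 to 6 in the Imatinib arm, 5 to 6 in the Su arm, 3 to 6 in the Ly+Imatinib arm, 3 to 6 in the Ly+Su arm and 3 to 6 in 6 of 6 arms. The 3 in 6 of 6 arms came without IR+Ly+Imatinib 2, where the Cma1 difference of that arm was -0.06 and that of Tpsb2 -0.62. The 6 came in the Ly+Imatinib arm without IR+Ly+Imatinib 1 and in the Ly+Su arm without IR+Ly+Su 1, and the Ly+Su arm had 5 without Ly+Su 1. Of 36 differences by gene and arm, 31 moved by less than the replicate SD with quantile normalization, 35 with the series values, 23 with normexp without those spots and 12 with normexp on all spots, where 9 changed sign. The cause of the other changes was not tested.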

Other observations

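Mrgprb2, the receptor through which connective tissue mast cells of mice respond to peptides without IgE, was above background on 3 of 24 arrays and did not enter the tests. It had -1.94 on IR 1, -4.71 on IR+Ly+Imatinib 2 and -5.41 on IR+Ly+Su 2, against -8.02 to -7.25 on the unirradiated arrays. On each of these 3 arrays the level of Cpa3 was the higher of its group. On IR+Ly+Imatinib 2 and IR+Ly+Su 2 dimmer signal was marked as above background, so that the count of 3 depends on the detection limit too. Tpsab1, the other secreted tryptase gene of mouse mast cells, was above background on 0 of 24 arrays, from -9.08 to -6.27 on irradiated arrays and from -8.01 to -7.18 on unirradiated arrays. Adora3, an adenosine receptor of mast cells, was detected on 10 of the irradiated arrays and 4 of the unirradiated ones. Averaged over the 6 arms, in part against signal not above background, it rose by 1.04 (SE 0.25, adjusted p = 0.00626 in limma), and by 1.02 without IR 1 (adjusted p = 0.0110 in limma).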
